A study of Homo sapiens with 8 samples.

Results

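The CD1 genes encode MHC class I-like molecules that hold lipids in place of peptides. The members were all probe sets of the deposited array table annotated to CD1A, CD1B, CD1C, CD1D or CD1E and to no other gene. These were 6 probe sets of 5 genes, 1 each for CD1A, CD1B, CD1C and CD1D and 2 for CD1E, among 41097 probe sets with 1 gene symbol (19775 genes) and 54675 in all. All 6 probe sets passed the filter on dim signals, and all 5 genes were among the 13102 genes tested. In the human reference annotation the 5 genes lie side by side on chromosome 1 in the order CD1D, CD1A, CD1B, CD1C and CD1E, with no other protein-coding gene between them.

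The study used ALL-SIL, an established human line of T-cell acute lymphoblastic leukemia in which the homeobox factor TLX1 is active, on 8 Affymetrix arrays in 4 groups of 2. In the co-culture experiment, cells carrying a lentiviral TCRα/β-GFP vector, which encodes a T-cell receptor (TCR) and a green fluorescent protein, were either kept without co-culture (no_TCR_activation) or placed for 48 h on OP9-DL1 (TCR_activation), mouse stroma engineered to display the Notch ligand DL1. In the hairpin experiment, cells carried either the pLKO.1-puro control hairpin (shRNA_control) or a hairpin against TLX1 (shRNA_TLX1), delivered by lentivirus and kept by puromycin selection. All arrays come from 1 cell line, the knockdown from 1 hairpin, and the labels give no culture time for the hairpin cells. No label states whether replicates are separate cultures, and p-values therefore cover only array-to-array spread, possibly technical. In the co-culture comparison the stroma, its Notch ligand and engagement of the TCR come together.

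Each CD1 chain pairs with beta-2 microglobulin, picks up lipid in the secretory pathway and in endosomes, and shows it to T cells. CD1A surveys recycling endosomes, CD1B reaches lysosomes through the AP-3 adaptor, CD1C visits both early and late endosomes, and CD1D presents lipids to natural killer T (NKT) cells. CD1E stays inside the cell, where it helps to load lipids on the other CD1 molecules. In the thymus, CD1 molecules mark cortical CD4+CD8+ thymocytes, and CD1A is lost as thymocytes leave the cortex. For this reason CD1A is used to define the cortical type of T-cell leukemia.

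Values are on the log2 scale, so a difference of 1 is a 2-fold change. Arrays of different experiments correlated at r = 0.942 to 0.951 over all probe sets, against 0.986 to 0.998 within an experiment. Actin probe sets at the 3′ end exceeded those at the 5′ end, a gap that widens with RNA breakdown, by 2.30 to 2.71 in the co-culture experiment and by 0.57 to 0.83 in the hairpin experiment. For GAPDH the same gap was smaller, at 0.31 to 0.36 in the co-culture experiment and -0.01 to 0.08 in the hairpin experiment. Replicate SDs had a median over genes of 0.06 (no co-culture), 0.04 (co-culture), 0.17 (control hairpin) and 0.11 (TLX1 hairpin). The co-culture groups also differed at 6 of 16 chromosome Y genes tested, all called lower with co-culture with a median change of -4.37, so a difference between the cells of these groups is not separated from the co-culture. The list of T-lineage markers, which also counts TLX1, read above the array median in all 8 arrays for 9 of 9 genes.

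The hairpin check came first. TLX1 read 8.66 and 8.27 under the control hairpin and 7.98 and 7.88 under its own hairpin. Both TLX1 hairpin arrays lay below both controls, with a difference of -0.53 that did not pass the threshold of 0.05 (limma adjusted p = 0.334). The direction is the one the label names.

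CD1A, CD1B and CD1E read lower in the TLX1 hairpin arrays than in the control hairpin arrays, by a log2 difference of 0.76 to 0.96 in size, while CD1C and CD1D gave no stable difference. CD1A, the cortical marker, read 9.04 and 8.83 with the control hairpin and 8.11 and 7.84 with the TLX1 hairpin. The groups did not overlap, and the closest arrays were 0.73 apart. CD1A was lower by 1.95-fold (95% interval 1.59 to 2.40; log2 difference -0.96, SE 0.13). It ranked place 17 of 13102 genes by p and missed the threshold (limma unadjusted p = 9.06e-05, adjusted p = 0.0682). The spread behind these values is shared by all 4 groups. CD1A SDs were 0.0056 and 0.0059 without and with co-culture, against 0.15 and 0.19 with the control and TLX1 hairpins. Fitted on the hairpin groups alone, the same difference had a limma unadjusted p of 0.00204 and an adjusted p of 0.9998.

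CD1E, the intracellular lipid-loading member, read 8.34 and 8.48 with the control hairpin and 7.61 and 7.70 with the TLX1 hairpin. Its groups stood 0.64 apart at the closest. The difference was -0.76 (SE 0.12, 95% interval -1.03 to -0.48; limma unadjusted p = 2.62e-04, adjusted p = 0.121), or 1.69-fold. The second CD1E probe set gave the same picture, with 8.19 and 8.33 against 7.46 and 7.55. It is no second measurement, because the gap between the CD1E probe sets was 0.152 in every array.

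CD1B, the member that samples lysosomes, read 8.63 and 8.51 with the control hairpin and 7.98 and 7.29 with the TLX1 hairpin. The control arrays were close together and the TLX1 hairpin arrays were not, with SDs of 0.09 and 0.49 (n = 2 each). The groups did not overlap. The difference was -0.93 (SE 0.21, 95% interval -1.41 to -0.46; limma adjusted p = 0.230). It was -0.59 without shRNA_TLX1 replicate 2 and -1.28 without shRNA_TLX1 replicate 1.

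**Figure D1:**
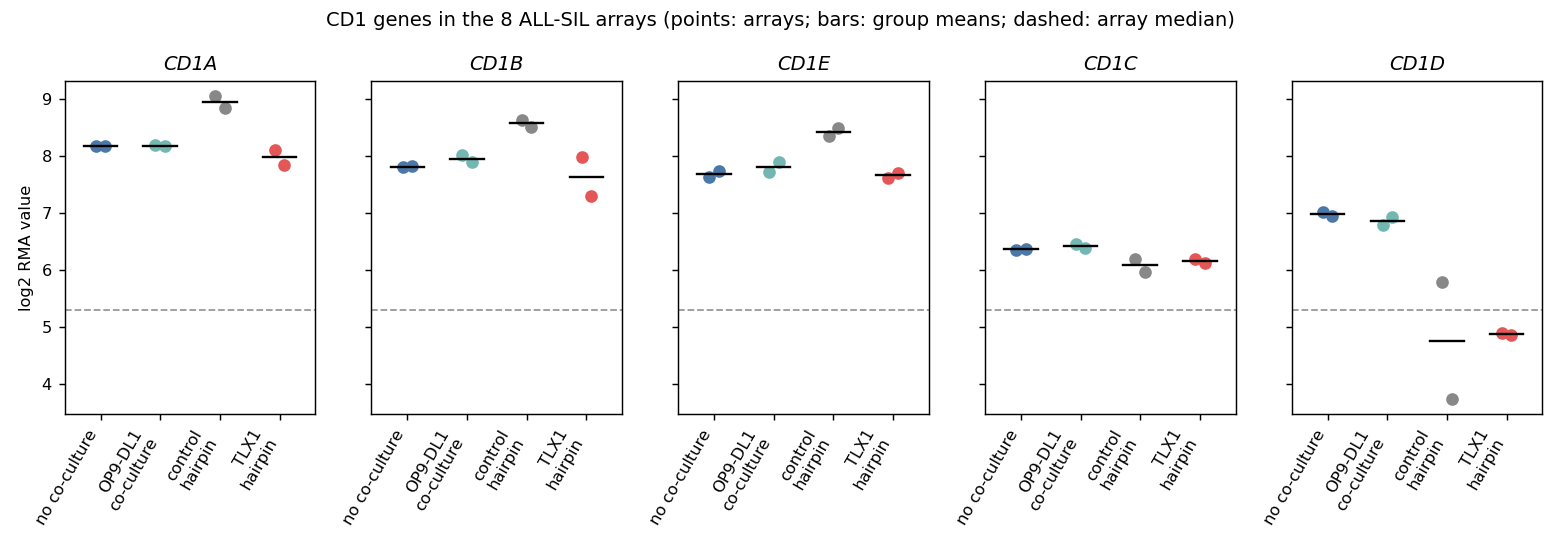
Log2 RMA value of each CD1 gene (y axis) in the 4 groups (x axis). Points are arrays, black bars group means and the dashed line the array median; heights may be compared between groups of a gene, not between genes. CD1A, CD1B and CD1E are highest in the 2 control hairpin arrays, and CD1D spreads from 3.73 to 5.78 in that group.

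CD1C, the member that visits early and late endosomes, read 6.19 and 5.97 with the control hairpin and 6.18 and 6.13 with the TLX1 hairpin. The groups overlapped. The difference was 0.08 (95% interval -0.19 to 0.34; limma adjusted p = 0.905), and it turned to -0.03 without shRNA_control replicate 2. The interval leaves out a fall as large as that measured for CD1A, CD1B or CD1E. The difference between the members' changes was not tested.

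CD1D, which serves NKT cells, read 5.78 and 3.73 with the control hairpin and 4.88 and 4.85 with the TLX1 hairpin. The control arrays lay on either side of the TLX1 hairpin arrays, and only the higher one was above the array median of 5.30. The difference was 0.11 (SE 0.54, 95% interval -1.14 to 1.36; limma adjusted p = 0.982). Leaving out 1 control array set its direction: it was 1.14 without shRNA_control replicate 1 (adjusted p = 0.00235) and -0.92 without shRNA_control replicate 2 (adjusted p = 0.0429). No direction is given for CD1D here.

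With limma, 0 of the 5 CD1 genes passed, against 12 of 13102 genes (0.0916%; 0.0611% higher and 0.0305% lower). Before adjustment, 3 of 5 had a p under 0.05 in the lower direction and 0 in the higher, against 8.98% of all genes in either direction, 4.77% lower and 4.21% higher. The groups did not overlap for 3 of 5 in the lower and 0 in the higher direction, against 14.6% and 14.1% of all genes. The median difference of the 5 was -0.76, and that of all genes was 0.00. Among all genes, each member included, 69 had a difference as low as that of CD1A, 74 as low as that of CD1B and 116 as low as that of CD1E.

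**Figure D2:**
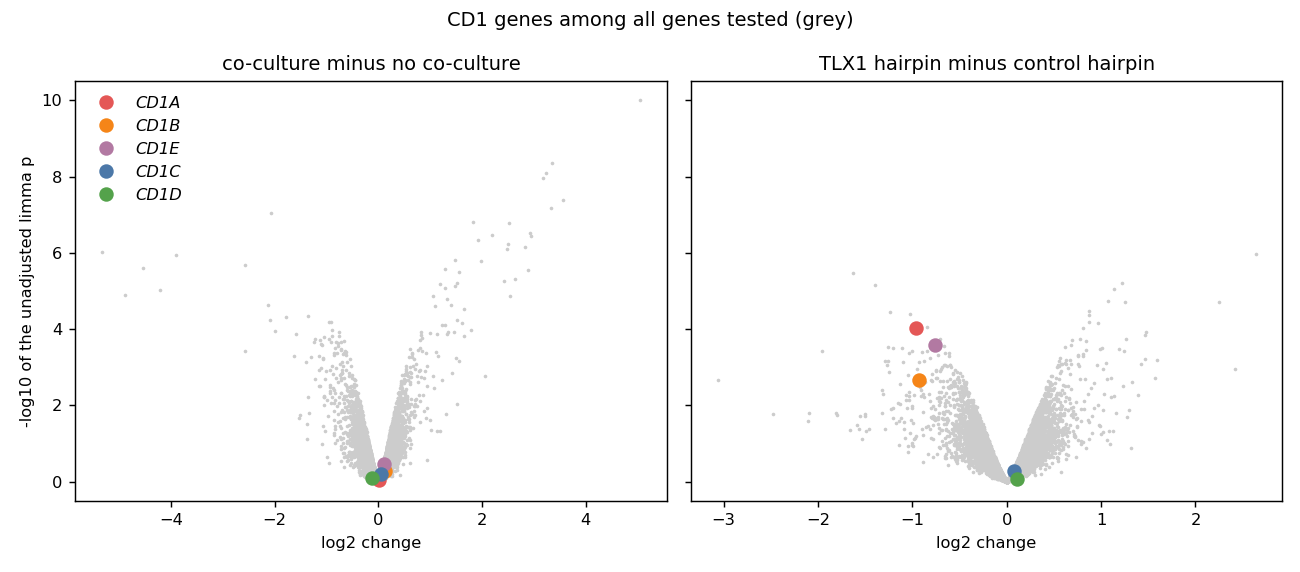
Log2 change (x axis) against -log10 of the unadjusted limma p (y axis) for all genes tested (grey) and the 5 CD1 genes (coloured), with the co-culture comparison on the left and the hairpin comparison on the right. CD1A, CD1B and CD1E stand at -0.96, -0.93 and -0.76 in the hairpin comparison, and all 5 genes lie near 0 in the co-culture comparison.

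The control hairpin arrays carry much weight in these differences. Without shRNA_control replicate 1, CD1A (-0.86, limma adjusted p = 0.00967) and CD1E (-0.83, 0.00940) passed the threshold, together with the rise of CD1D given above, in a fit that called 1796 genes. Without shRNA_control replicate 2, CD1A passed (-1.07, 0.0429), as did CD1D in the other direction, and 38 genes were called. In these fits the lone control array is assumed to vary like the other groups. CD1A, CD1B and CD1E kept their direction in all 17 alternatives, but this was fixed in advance. Their groups did not overlap, and beyond rounding only leaving out a hairpin array alters the difference. Their limma unadjusted p was under 0.05 in every alternative that kept 2 arrays in each group. A fit restricted to the 2 hairpin groups nevertheless gave each a limma adjusted p of 0.9998. In that fit the limma unadjusted p was 0.00204 for CD1A, 0.00338 for CD1E and 0.0118 for CD1B.

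**Figure D3:**
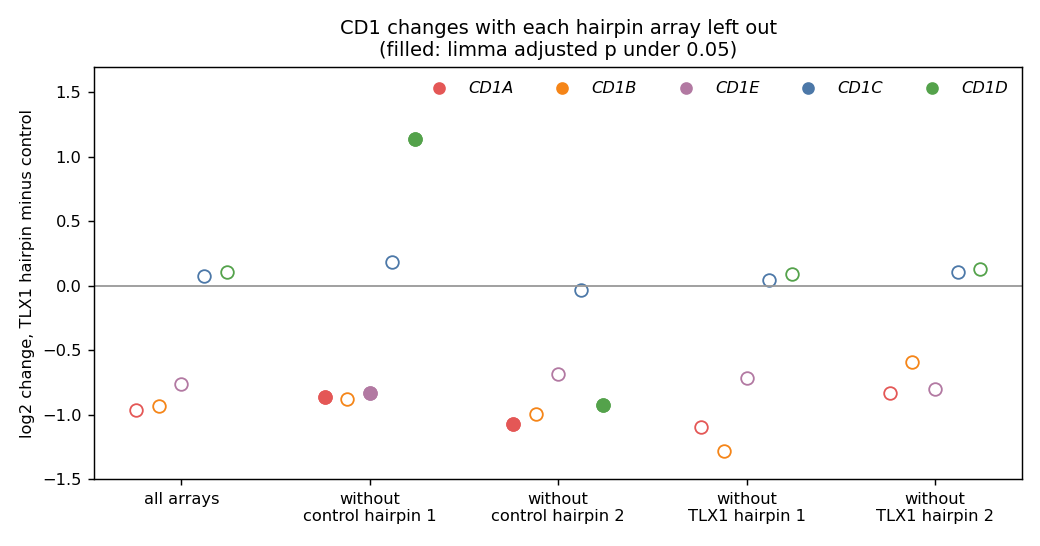
Log2 change of each CD1 gene, TLX1 hairpin minus control hairpin (y axis), with all arrays and with each hairpin array left out (x axis); filled points had a limma adjusted p under 0.05. CD1A, CD1B and CD1E stay between -1.28 and -0.59, whereas CD1D moves from 1.14 to -0.92 with the control array left out.

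With co-culture on OP9-DL1 no CD1 gene passed the test, and the measured differences lay between -0.13 and 0.14. CD1A read 8.17 and 8.16 without co-culture and 8.18 and 8.17 with it, a difference of 0.01 (95% interval -0.29 to 0.31; limma adjusted p = 0.9998). CD1B read 7.80 and 7.81 without co-culture and 8.01 and 7.88 with it, a difference of 0.14 (-0.34 to 0.62). CD1E read 7.63 and 7.74 without co-culture and 7.71 and 7.90 with it, a difference of 0.12 (-0.16 to 0.40). These 3 genes, which read lower under the TLX1 hairpin, differed by no more than 0.14 here.

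CD1C read 6.34 and 6.37 without co-culture and 6.45 and 6.38 with it, a difference of 0.06 (95% interval -0.20 to 0.33). CD1D read 7.02 and 6.95 without co-culture and 6.79 and 6.92 with it, a difference of -0.13 (-1.38 to 1.12). The spread behind this interval is shared with the control hairpin arrays, where CD1D varied most. Fitted on the co-culture groups alone, the same difference had a limma unadjusted p of 0.130 and an adjusted p of 0.317.

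With limma, 0 of the 5 passed, against 81 of 13102 genes (0.618%; 0.366% higher and 0.252% lower). Before adjustment, 0 of the 5 had a p under 0.05, against 7.42% of all genes, 3.98% higher and 3.43% lower. The fit of only these 2 groups, which called 866 genes, and the fit with array weights, which called 1350, also called 0 of the 5. The groups did not overlap for 3 genes in the higher and 1 in the lower direction, where 32% and 25.4% of all genes did the same. The smallest of these gaps was 0.0039, for CD1A. A missed threshold does not show that the levels were equal: the intervals allow changes of up to 0.31 for CD1A and 0.62 for CD1B.

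**Figure D4:**
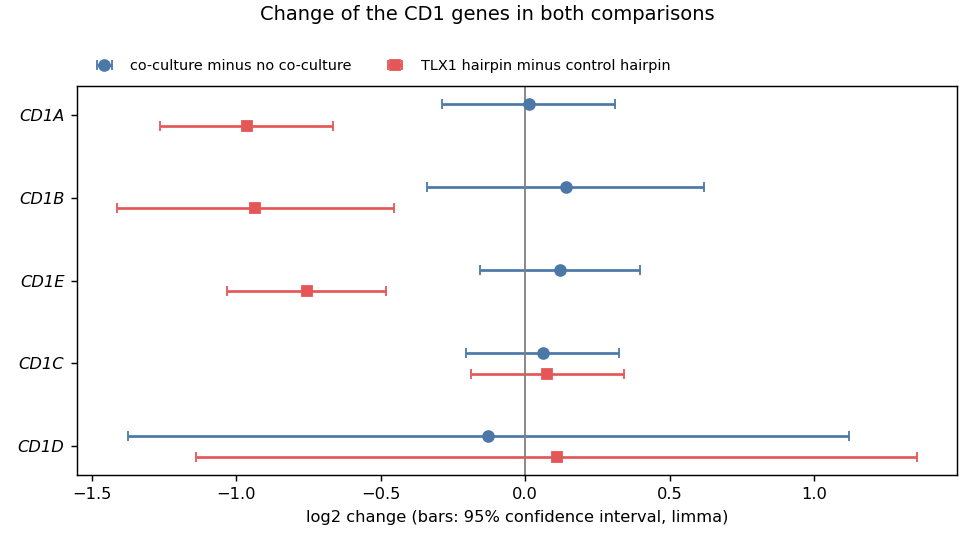
Log2 change of the 5 CD1 genes (x axis) in the co-culture comparison (circles) and the hairpin comparison (squares), with 95% confidence intervals from limma. The hairpin intervals of CD1A, CD1B and CD1E lie below 0, and the other 7 intervals include 0.

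The order of the groups showed which arrays stood apart. For CD1A the group means were 8.94 ± 0.15 with the control hairpin, 8.18 ± 0.01 with co-culture, 8.17 ± 0.01 without co-culture and 7.98 ± 0.19 with the TLX1 hairpin (mean ± SD, n = 2 each). For CD1B the same order held, at 8.57 ± 0.09, 7.95 ± 0.09, 7.81 ± 0.01 and 7.63 ± 0.49, and the last 2 groups overlapped. For CD1E the means were 8.41 ± 0.10, 7.80 ± 0.13, 7.68 ± 0.08 and 7.66 ± 0.06, and the last 3 groups overlapped with their neighbours. The control hairpin group lay above the mean of the 4 co-culture experiment arrays by 0.77 for CD1A, 0.69 for CD1B and 0.67 for CD1E, while the TLX1 hairpin group differed from that mean by -0.20, -0.24 and -0.08.

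The other members were ordered differently. For CD1D the co-culture experiment read 6.79 to 7.02 and the hairpin groups averaged 4.76 ± 1.45 (control) and 4.87 ± 0.03 (TLX1), which is -2.16 and -2.05 from the co-culture experiment mean. For CD1C it read 6.34 to 6.45 against 6.08 ± 0.16 and 6.15 ± 0.04 in the same groups. The experiments also differ in vector and in the RNA measures given above, so the source of a difference between them cannot be told apart, and none was tested.

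Between replicates CD1A, CD1B and CD1E did not all move together. In both hairpin groups CD1A and CD1B read higher in replicate 1 and CD1E read higher in replicate 2. After the mean of its experiment was taken from each value, CD1A correlated with CD1B at r = 0.95 and with CD1E at r = 0.90 over the 8 arrays, and CD1B with CD1E at r = 0.80. CD1C correlated with CD1A at -0.22 and with CD1D at 0.77. These r values are descriptions, since the arrays share their groups and any difference between the hairpin groups enters them. Of the 5, CD1A, CD1B and CD1E share a difference between the hairpin groups. CD1C did not show that difference, and for CD1D the interval of -1.14 to 1.36 leaves the direction undecided. Both read higher in shRNA_control replicate 1 (6.19 and 5.78) than in replicate 2 (5.97 and 3.73).

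By the same r over 8 arrays, the 3 genes most like each member were named. For CD1A they were CDPF1 (0.99), HAND2-AS1 (0.98) and CCR9 (0.97), the last a chemokine receptor of cortical thymocytes. HAND2-AS1 read 4.32 to 4.54 in the hairpin arrays, below the array median. For CD1B they were NT5C, RFNG and RFC2 (0.99 each), and for CD1E they were PHLDA2 (0.99), COL9A3 (0.98) and BTBD19 (0.98). Each gene named so far read lower on average with the TLX1 hairpin, like its member, so that group difference enters its r. For CD1C they were HNRNPF, CALHM5 and TCTN1 (0.98 each). In all 3, as in CD1C, the control hairpin arrays had the widest split between replicates. They read 10.48 and 10.17 for HNRNPF, 5.39 and 5.02 for CALHM5 and 6.18 and 5.93 for TCTN1. The likeness to CD1C therefore rests largely on that pair of arrays. For CD1D they were WDR45 (0.998), SH2D1A (0.995), the adaptor of SLAM receptors, and CUTA (0.993). In all 3, as in CD1D, the widest split between replicates was that of the control hairpin arrays, at 7.14 and 6.28 for WDR45, 10.75 and 9.85 for SH2D1A and 10.99 and 10.53 for CUTA, so this likeness rests largely on 1 pair of arrays.

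The promoters of CD1A and CD1E, which read lower together in the hairpin comparison, and of CD1C, whose groups overlapped, are printed from RefSeq (GRCh38.p14) to let the upstream letters be compared. Entries matched 4 of the 5 members, CD1B being the one not matched, and CD1A and CD1D have 2 listed starts each. The CD1D windows are not printed. Each line gives the 250 bases before a listed start, 5′ to 3′, with capitals marking the E-box CANNTG, the core bound by E proteins.
CD1A, chr1:158248086-158248335, plus strand: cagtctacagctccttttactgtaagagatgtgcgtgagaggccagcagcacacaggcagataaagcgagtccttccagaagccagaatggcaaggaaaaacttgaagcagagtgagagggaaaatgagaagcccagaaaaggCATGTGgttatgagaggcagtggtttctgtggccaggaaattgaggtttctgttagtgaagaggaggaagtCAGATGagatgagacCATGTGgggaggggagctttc
CD1A, chr1:158254174-158254423, plus strand: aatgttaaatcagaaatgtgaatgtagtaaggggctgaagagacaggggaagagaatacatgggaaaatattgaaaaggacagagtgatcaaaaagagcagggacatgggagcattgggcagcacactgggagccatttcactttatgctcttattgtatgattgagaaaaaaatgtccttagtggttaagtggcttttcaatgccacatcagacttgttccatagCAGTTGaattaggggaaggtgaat
CD1E, chr1:158353644-158353893, plus strand: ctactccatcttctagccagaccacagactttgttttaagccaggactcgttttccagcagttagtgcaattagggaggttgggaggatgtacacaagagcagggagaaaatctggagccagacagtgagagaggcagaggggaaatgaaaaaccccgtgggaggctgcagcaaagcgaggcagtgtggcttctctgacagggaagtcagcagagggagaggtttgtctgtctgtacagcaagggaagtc
CD1C, chr1:158289673-158289922, plus strand: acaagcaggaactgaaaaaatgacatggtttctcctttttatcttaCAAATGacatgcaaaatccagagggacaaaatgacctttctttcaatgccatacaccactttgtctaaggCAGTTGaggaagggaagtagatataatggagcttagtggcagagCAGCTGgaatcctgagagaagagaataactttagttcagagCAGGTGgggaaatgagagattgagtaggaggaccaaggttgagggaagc

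The E-box, which reads the same on both strands, occurred 3 times before the first CD1A start, at -107, -36 and -21 from the start. It occurred 1 time before the second, at -24, 4 times in the CD1C window and 0 times in the CD1E window. The CD1D windows, not printed, held the E-box 1 time and 0 times. Of all 35116 windows of this length, 61.8% held at least 1. The ETS-type letters GGAAGT, searched on both strands, were found 1 time before the first CD1A start (-42), 2 times before CD1E (-49 and -7) and 1 time before CD1C (-122), and in 19.5% of all windows. The RUNX-type letters TGTGGT were found 1 time before the first CD1A start (-105, overlapping an E-box) and 1 time before CD1E (-230), and in 10.98% of all windows. The homeobox core TAATTA and the TATA letters TATAAA, held by 4.35% and 10.7% of all windows, were in 0 of these windows. The CD1D windows held none of the motifs other than the E-box. None of the 5 motifs was shared by all windows of CD1A and CD1E, and a match is a description of letters only.

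Genes of the cortical thymocyte stage gave 1 call in the hairpin comparison. Of 18 listed, 14 were tested, and in the hairpin comparison 1 fell, 0 rose and 13 did not pass, with a median change of 0.04 against 0.00 for all genes. CCR9, which guides thymocytes to the cortex and gut, read 9.02 and 9.09 with the control hairpin and 7.55 and 7.29 with the TLX1 hairpin, and fell by 1.63 on the log2 scale (limma adjusted p = 0.0222). Like CD1A, CCR9 was highest in the control hairpin arrays, and it read 7.53 to 7.81 in the co-culture experiment. Its call was lost when an array other than a control hairpin array was left out, with an adjusted p of 0.0590 to 0.118, and also when the hairpin groups were fitted alone (0.425) or arrays were weighted (0.316).

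RAG1, the recombinase of antigen receptor genes, read 8.72 and 9.08 against 7.85 and 8.14, a difference of -0.90 (limma adjusted p = 0.126). Unlike CD1A, RAG1 read about as high in the co-culture experiment (8.68 to 8.78) as in the control hairpin arrays. The co-receptor gene CD8A differed by 0.49 (limma adjusted p = 0.380) and the terminal transferase gene DNTT by 0.86 (0.452), both higher in the TLX1 hairpin arrays. In the co-culture comparison 0 of the 14 passed by limma, and 1 of them was lower at an unadjusted p under 0.05. That gene was SATB1, a chromatin organiser of thymocytes (-0.39, limma adjusted p = 0.525; 0.0332 when only the 2 groups were fitted). That fit called 866 genes.

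Post-selection markers, which thymocytes gain as CD1A is lost, gave 0 called of 10 tested in the hairpin comparison, with a median change of 0.00 and 2 lower at an unadjusted p under 0.05. The lymph node homing receptor CCR7 read 7.91 and 9.23 with the control hairpin and 4.38 and 6.63 with the TLX1 hairpin. Its difference was -3.06 (limma adjusted p = 0.230; 0.0447 with the replicate block). The chemokine receptor CCR4 differed by -0.93 (limma adjusted p = 0.208). In the co-culture comparison FOXO1, a factor of quiescent T cells, fell by 1.10 (limma adjusted p = 0.0411), 0 rose and 9 did not pass, with a list median of -0.34. Leaving out any 1 array except those of the control hairpin ended the FOXO1 call (adjusted p 0.106 to 0.477), as did the stricter filter (0.0671) and the replicate block (0.102).

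The genes that assemble CD1 molecules showed 0 calls of 6 tested in either comparison, and 0 of the 6 had an unadjusted p under 0.05. B2M, the light chain of every CD1 molecule, read 13.46 and 13.45 with the control hairpin and 13.67 and 13.61 with the TLX1 hairpin. Its difference was 0.19 (95% interval -0.04 to 0.41; limma adjusted p = 0.631), in the opposite direction to CD1A. With co-culture the chaperone gene CALR read 10.07 ± 0.09 against 9.84 ± 0.05 (n = 2 each; limma adjusted p = 0.849).

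Genes for lipid loading and glycolipid breakdown gave 0 calls of 14 tested in either comparison by limma. In the hairpin comparison 1 was higher and 2 were lower at an unadjusted p under 0.05, with a list median of -0.06. PSAP, the precursor of the saposins that move lipids onto CD1 molecules, differed by 0.34 (limma adjusted p = 0.380). HEXA, a lysosomal hexosaminidase subunit, differed by -0.31 (0.492; 0.10, the other direction, with the mean of its probe sets). APOE, a lipid carrier, differed by -0.43 (0.537). In the co-culture comparison 0 were higher and 1 was lower at an unadjusted p under 0.05: UGCG, the enzyme that makes glucosylceramide (-0.55, limma adjusted p = 0.275; 0.0241 when only the 2 groups were fitted). The fit of only the co-culture groups called 866 genes. MTTP, which lipidates CD1D, was too dim to be tested.

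Sorting and recycling genes, among them the adaptors AP-2 and AP-3 that carry CD1 molecules through endosomes, gave 0 calls of 18 tested in either comparison by limma. AP2B1, a large subunit of AP-2, differed by -0.75 in the hairpin comparison (limma adjusted p = 0.223) and was the 1 gene of this list with an unadjusted p under 0.05 there. AP1G1, a subunit of the AP-1 adaptor, differed by 0.36 with co-culture (limma adjusted p = 0.620; 0.0487 when only the 2 groups were fitted). The fit of only the co-culture groups called 866 genes. The list medians were 0.04 and 0.07, with 0.00 and 0.02 for all genes.

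Among 12 tested MHC class I and class I-like genes, 0 passed in either comparison by limma. In the hairpin comparison 11 of the 12 had a negative sign, against 50.4% of all genes, with a median of -0.26. The groups were apart for 2 of the 12 in the lower and 0 in the higher direction, near the 14.6% and 14.1% of all genes. The mean level of the 15 listed genes with a probe set was 7.514 for shRNA_control replicate 1, 7.822 for its replicate 2, and 7.498 and 7.420 for the TLX1 hairpin replicates, so the gap lies mainly to shRNA_control replicate 2. At an unadjusted p under 0.05, 1 gene was lower. That gene was FCGRT, the neonatal Fc receptor (-0.47, limma adjusted p = 0.272). HLA class I probe sets can read more than 1 of these similar genes. In the co-culture comparison 11 of 12 were negative too, against 45% of all genes, with a median of -0.11 and 0 at an unadjusted p under 0.05. There the groups were apart for 10 of the 12 in the lower and 0 in the higher direction, against 25.4% and 32% of all genes.

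**Figure D5:**
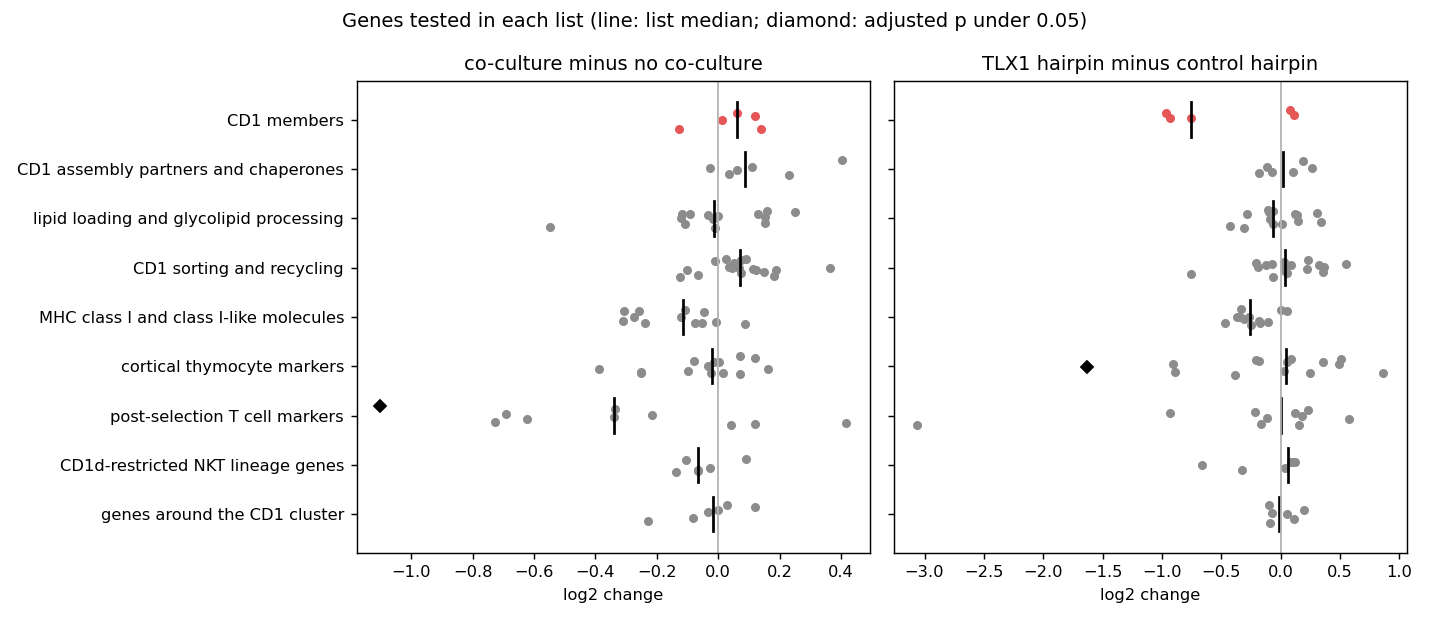
Log2 change (x axis) of every gene tested in each list (y axis), for the co-culture comparison on the left and the hairpin comparison on the right; lines are list medians and diamonds genes with a limma adjusted p under 0.05. In the hairpin comparison the CD1 median is -0.76, while the medians of the other 8 lists plotted lie between -0.26 and 0.06.

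Genes of CD1d-restricted NKT cells gave 0 calls of 6 tested in either comparison by limma. TBX21, a T-box factor, differed by -0.66 in the hairpin comparison (limma adjusted p = 0.376) and was the 1 gene with an unadjusted p under 0.05. In the co-culture comparison there were 0. Of 22 listed genes around the CD1 cluster on chromosome 1, 6 could be tested, 9 were dim and 7 were without a probe set. Of those 6, 0 passed in either comparison and 0 had an unadjusted p under 0.05, with changes between -0.10 and 0.20 in the hairpin comparison.

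Among markers of other cells that carry CD1, those of dendritic cells were mostly dim and those of B cells only in part. Of 12 dendritic cell markers with a probe set, 1 or 2 read above the array median in the hairpin arrays and 2 to 4 in the co-culture experiment. Over the 4 tested, 0 passed in either comparison. CD83, an activation marker shared with other cells, differed by -0.56 with co-culture (limma adjusted p = 0.620). Of 8 B cell markers with a probe set, 4 were dim and 4 were tested, and 2 to 4 read above the array median. CD79A, a B cell receptor chain, read 8.31 to 8.40 in the co-culture experiment and 7.14 to 8.19 in the hairpin arrays. It differed by 0.67 in the hairpin comparison (limma adjusted p = 0.360).

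Some monocyte and granulocyte genes rose with co-culture. Of 13 listed, 5 were dim and 1 had no usable probe set, and of the 7 tested 5 rose, 0 fell and 2 did not pass by limma. Of all genes, 0.366% were called higher and 0.252% lower. RNASE2 and PRTN3, granule proteins, were above the array median in the 2 co-culture arrays alone and so met the filter only through the group in which they are high, which fixes part of this count. The log2 changes were 5.05 for RNASE2, 3.35 for DEFA4, 3.33 for PRTN3 and 1.05 and 0.81 for the myeloid factors CEBPA and CEBPE, with limma adjusted p values of 1.29e-06 to 0.0369. MPO, the granule peroxidase, chosen after its values were seen, read in the other direction, with 7.97 ± 0.22 with co-culture against 8.69 ± 0.0025 without it (n = 2 each). Its groups did not overlap, and its difference was -0.72 (95% interval -1.07 to -0.36; limma unadjusted p = 0.00191, adjusted p = 0.156; 0.0322 when the co-culture groups were fitted alone and 0.00553 with array weights). Those fits called 866 and 1350 genes. The mean level of 12 such genes was 4.76 in both arrays without co-culture and 5.86 to 5.91 with it. Leaving out 1 co-culture experiment array ended the calls of CEBPA (adjusted p up to 0.120) and CEBPE (up to 0.468). The CEBPE call also ended without either TLX1 hairpin array (0.0759) and with the replicate block (0.0943). In the hairpin comparison 0 of the 7 passed, with 0 at an unadjusted p under 0.05.

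T-lineage and stromal markers gave 0 calls in either comparison, of 9 and 8 genes tested. The T-lineage list counts TLX1, the target of the hairpin. In the hairpin comparison the adhesion receptor CD2 differed by -0.98 (limma adjusted p = 0.228), the TCR zeta chain CD247 by 0.61 (0.410) and the kinase LCK by 0.34 (0.438). The intermediate filament gene VIM differed by -0.76 (0.446). With co-culture CD2 differed by -0.69 (limma adjusted p = 0.439), the TCR beta constant gene TRBC1 by 0.55 (0.341) and the growth factor receptor PDGFRB by -0.53 (0.439). The part of these cell type markers in the CD1 values was not tested. Fewer cells with a gene and less RNA per cell cannot be told apart in such bulk samples.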

How the data were processed

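RNA of 8 ALL-SIL samples was hybridised to Affymetrix arrays. The deposited table holds log2 values per probe set; the submitters' processing notes name RMA, affy and R 2.9.0, and further settings are not given in the sources used here. All array medians fell at 5.29 to 5.30, so an overall shift cannot be seen, and the number of arrays limits the precision.

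Probe sets were named from the platform annotation, without those of several genes. A probe set was kept if 2 or more of the 8 arrays put it over their median, and the kept one of highest mean stood for its gene (13102 genes). One limma model (limma 3.58.1, R 4.3.3) fitted 4 group means with eBayes. Residual degrees of freedom were 4 and prior degrees of freedom 3.62. Benjamini-Hochberg adjustment ran over every tested gene at a threshold of 0.05. The fit was tested on simulated data that gave each gene the same spread in every group. The unequal group SDs of these arrays were not simulated, so that test does not cover them.

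Members, lists and tests were chosen with earlier results of these data known. Named were the members, TLX1, list genes past the threshold or among the 4 with the smallest p in a list, and the 3 genes most correlated with each member. Alternatives were the filter, the probe set rule, the groups fitted, eBayes options, array weights, the replicate block and left-out arrays. Other background corrections and normalizations were not run, as scanner files were not used here.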

Additional observations from a re-analysis of the deposited data

How the results depend on the processing

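CD1A, CD1B and CD1E kept the sign of their hairpin difference in all 17 alternatives. Their groups did not overlap, so no alternative could have turned that sign, and the count is no separate support. In the co-culture comparison 0 of 5 CD1 genes were called in any alternative that kept 2 arrays in each group. Over left-out arrays the hairpin differences ranged from -1.10 to -0.83 for CD1A, -1.28 to -0.59 for CD1B, -0.83 to -0.69 for CD1E, -0.03 (-0.033, without shRNA_control replicate 2) to 0.19 for CD1C and -0.92 to 1.14 for CD1D, and the count of CD1 genes called from 0 to 3. HEXA turned to 0.10 with the mean of probe sets. The cause of these shifts was not tested. Genes called in the co-culture comparison, 81 in the model reported, were 25 with the stricter filter, 146 probe sets on their own, 866 with only the 2 groups, 1350 with array weights and 29 to 217 over left-out arrays. In the hairpin comparison, 12 became 23 probe sets on their own, 0 with only the 2 groups, 1 with array weights and 0 to 1796 over left-out arrays. With the replicate block the counts were 73 and 9 and CD1A had an adjusted p of 0.0625 in the hairpin comparison; replicate numbers are shared only as numbers, and deviations of equal numbers correlated at -0.14 in the co-culture and 0.35 in the hairpin experiment. With crossed numbers, an alternative chosen after seeing the data, 25 genes were called in the co-culture comparison and 0 of them were CD1 genes. With 2 arrays a group, only large changes can pass the threshold.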
